A study of Homo sapiens with 12 samples.

Results

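Antisense long non-coding RNAs were followed in 143B cells, a human osteosarcoma line. The members are all gene symbols that end in -AS and 1 digit and that averaged at least 2 CPM (the count divided by the library total, times 1e6) over the 12 libraries. Among 24180 symbols measured, 1082 carry such an ending and 152 reached the floor, and all 152 had counts in every library and passed the filter for testing. The members were thus chosen by their symbol and by a measured mean level, with earlier results of these data known. No difference between groups is written into the rule. A member can still reach the floor through the group where it is high, as DLX6-AS1 did through NC. UBQLN1-AS1 at 2.02, AFF1-AS1 at 2.02 and TMEM44-AS1 at 2.01 mean CPM lay just inside the floor, and CCDC28A-AS1 at 1.98, MAST4-AS1 at 1.96 and EML2-AS1 at 1.95 just outside. BSG-AS1 takes its name from the basigin gene and has nothing to do with the group called BSG.

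The 12 libraries form 4 groups of 3. The titles give NC as the control and name the rest BSG, M-BSG and M-BSG-Hot, all on a wild-type background. The series title speaks of borosilicate bioactive glass and magnetic hyperthermia, and the titles equate M-BSG with 5-MNP-BSG and M-BSG-Hot with 5-MNP-BSG (+). All samples, NC too, carry 1 shared treatment text, which names a magnetothermal system called 5-MNP-BSG and exposure to an alternating field, so what each group received, at which dose and for how long, is not given. Nothing in the labels ties the 3 libraries of a group to separate cultures, and the p-values therefore reflect the spread among libraries that may be technical replicates.

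An antisense transcript is read from the strand opposite to a neighbouring gene, whose name it takes with the suffix -AS, while the neighbour is called the sense gene. Such transcripts are often spliced and polyadenylated, are commonly retained in the nucleus, and are removed by the nuclear RNA exosome and its cofactors. Some regulate their sense gene in cis, others act elsewhere in the cell, and for most no function is known.

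The members were mostly annotated as their names imply. A RefSeq gene table lists 150 of the 152 as long non-coding RNA, TP73-AS1 as a transcribed pseudogene and BCAN-AS1 not at all. In the GENCODE v29 annotation 149 were found, of which 136 overlapped the named sense gene on the opposite strand and 11 lay beside it in divergent orientation. By the outer ends of the GENCODE gene models, antisense and sense starts lay within 1000 bases of each other for 50 members. RefSeq starts can differ from these. CSRP1-AS1 starts 2215 bases from CSRP1 by GENCODE, yet the RefSeq promoter windows of both genes share 189 bases. Whether the counting used strand is not given in the sources used here, so reads from stretches where the exons of both genes overlap cannot be told apart. The exonic bases shared with exons of the opposite strand had a median of 9.88% over the 149 members, were 0 in 29 and reached 50% in 13. Among the latter were HSD17B1-AS1 at 85.2%, AP1G2-AS1 at 83.3% and CAMTA2-AS1 at 68.5%, so the values of these genes are uncertain, while SLC9A3-AS1 shared 19.3% and CCDC18-AS1 4.39%.

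Promoter windows from 250 bases before to 50 bases after the annotated start are shown for the members on which the results turn, as RefSeq gives them for GRCh38.p14. The table holds a window for 128 of the 152 members. The first set has members that fell against NC: SLC9A3-AS1 (chr5:472986-473285, plus strand), ASB16-AS1 (chr17:44186668-44186967, minus strand), CCDC18-AS1 (chr1:93345762-93346061, minus strand), TMEM147-AS1 (chr19:35545980-35546279, minus strand) and DLX6-AS1 (chr7:97014016-97014315, minus strand). EPB41L4A-AS1 (chr5:112160276-112160575, plus strand) is a member that rose. Capitals mark the first 50 transcribed bases.
SLC9A3-AS1: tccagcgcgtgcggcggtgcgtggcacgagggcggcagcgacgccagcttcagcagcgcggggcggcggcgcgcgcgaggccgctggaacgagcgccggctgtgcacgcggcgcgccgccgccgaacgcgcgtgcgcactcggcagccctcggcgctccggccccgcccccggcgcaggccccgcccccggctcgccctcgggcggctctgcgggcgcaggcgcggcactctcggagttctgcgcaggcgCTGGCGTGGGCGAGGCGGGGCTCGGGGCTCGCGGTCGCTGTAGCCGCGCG
ASB16-AS1: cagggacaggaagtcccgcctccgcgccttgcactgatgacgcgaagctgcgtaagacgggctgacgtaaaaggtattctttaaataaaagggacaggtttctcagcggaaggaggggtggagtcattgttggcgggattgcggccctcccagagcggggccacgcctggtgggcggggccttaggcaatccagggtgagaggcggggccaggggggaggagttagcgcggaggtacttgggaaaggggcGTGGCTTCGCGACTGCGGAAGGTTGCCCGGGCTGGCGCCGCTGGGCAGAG
CCDC18-AS1: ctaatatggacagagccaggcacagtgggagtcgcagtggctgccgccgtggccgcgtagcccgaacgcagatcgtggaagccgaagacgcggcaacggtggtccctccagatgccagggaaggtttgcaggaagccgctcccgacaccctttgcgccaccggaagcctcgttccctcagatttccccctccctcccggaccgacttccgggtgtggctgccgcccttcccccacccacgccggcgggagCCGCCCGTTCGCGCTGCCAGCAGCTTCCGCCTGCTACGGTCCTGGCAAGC
TMEM147-AS1: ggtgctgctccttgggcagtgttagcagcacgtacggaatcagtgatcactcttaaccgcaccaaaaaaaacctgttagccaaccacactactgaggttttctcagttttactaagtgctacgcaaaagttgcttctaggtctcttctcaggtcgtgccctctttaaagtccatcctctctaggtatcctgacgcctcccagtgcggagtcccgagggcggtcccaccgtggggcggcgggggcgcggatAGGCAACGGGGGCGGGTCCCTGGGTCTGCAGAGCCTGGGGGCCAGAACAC
DLX6-AS1: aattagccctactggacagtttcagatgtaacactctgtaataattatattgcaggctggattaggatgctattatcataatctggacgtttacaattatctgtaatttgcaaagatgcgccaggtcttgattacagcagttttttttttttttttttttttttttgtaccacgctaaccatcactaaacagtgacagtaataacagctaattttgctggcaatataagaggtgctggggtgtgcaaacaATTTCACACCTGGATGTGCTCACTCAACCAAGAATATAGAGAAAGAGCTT
EPB41L4A-AS1: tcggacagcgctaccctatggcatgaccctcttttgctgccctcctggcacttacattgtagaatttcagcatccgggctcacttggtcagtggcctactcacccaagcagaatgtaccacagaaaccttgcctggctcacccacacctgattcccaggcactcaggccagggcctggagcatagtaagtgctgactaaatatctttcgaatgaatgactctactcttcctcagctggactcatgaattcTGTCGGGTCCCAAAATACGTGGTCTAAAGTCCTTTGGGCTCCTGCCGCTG

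The SLC9A3-AS1 window held 61 CpG pairs with a GC content of 82.3%, whereas the DLX6-AS1 window held 3 with a GC content of 36%. EPB41L4A-AS1 held 7 CpG pairs at 52.3% GC. Over the 128 members the median was 27 CpG pairs and 67.0% GC, beside 14 pairs and 58.3% over all 27305 windows of the table. Of 118 members with windows for both genes on opposite strands, 24 had windows that overlapped the sense window, by a median of 198.5 bases. CSRP1-AS1 (chr1:201506963-201507262, plus strand) is shown as an example, with the 189 bases shared with the window of CSRP1 in capitals.
CSRP1-AS1: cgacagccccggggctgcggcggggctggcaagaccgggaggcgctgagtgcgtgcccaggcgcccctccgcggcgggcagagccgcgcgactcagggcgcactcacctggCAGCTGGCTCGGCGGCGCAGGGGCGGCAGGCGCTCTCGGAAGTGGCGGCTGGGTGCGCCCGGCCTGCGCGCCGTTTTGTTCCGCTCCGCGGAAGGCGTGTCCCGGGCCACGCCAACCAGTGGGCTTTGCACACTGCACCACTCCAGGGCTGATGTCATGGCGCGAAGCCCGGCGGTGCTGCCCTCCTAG

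Both strands of each window were searched for 5 motifs. TGANTCA (AP-1) was found in 6.25% of member windows and 7.76% of all windows, TGACGTCA (the cAMP response element) in 3.91% and 1.98%, and CCAAT in 26.6% and 35.7%. TATAAA was found in 3.12% of member windows and 12.0% of all, and GAANNTTC (a core of the heat shock element) in 6.25% and 6.87%. None of the printed windows held a match to any of these letters, but they are a small choice. Among the 36 windows of members called lower in at least 1 comparison with NC, CCAAT was found in 36.1% and TGANTCA in 8.33%. GAANNTTC was found in 5.56%, and TGACGTCA and TATAAA in 2.78% each.

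Antisense transcripts took a smaller share of all counts in the 3 other groups than in NC. The 152 members summed to 0.182%, 0.185% and 0.183% of counts in the NC libraries. The BSG libraries held 0.142%, 0.151% and 0.152%, the M-BSG libraries 0.150%, 0.150% and 0.153%, and the M-BSG-Hot libraries 0.133%, 0.148% and 0.143%. In such bulk libraries fewer cells with these transcripts and less RNA per cell cannot be told apart. Every NC library lay above all 9 others. BSG overlapped both M-BSG and M-BSG-Hot, while every M-BSG-Hot library lay below every M-BSG library. Without the 5 members with most counts the range was 0.118% to 0.120% in NC and 0.0892% to 0.104% in the other libraries. The sense genes together stayed between 1.68% and 1.72% of counts in all 12 libraries. Library totals ran from 34434993 to 38163152 counts, highest in M-BSG-Hot 3 and lowest in NC 1. The share of ribosomal protein genes ran from 7.58% to 11.4% and was highest in BSG 1, M-BSG 1 and M-BSG-Hot 3. Its part in the results was not tested, and counts of calls without these 3 libraries are given beside the others.

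**Figure D1:**
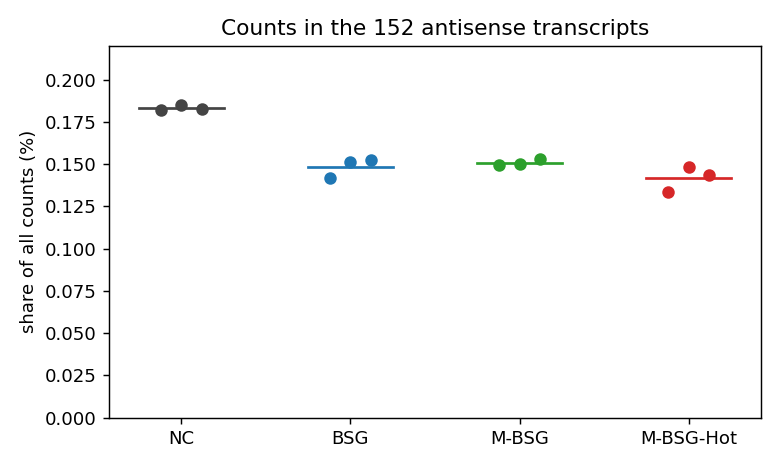
Share of all counts, in percent, held by the 152 antisense transcripts, with 1 point per library and a line at each group mean (vertical axis from 0). The 3 NC points lie between 0.182% and 0.185% and the other 9 at or below 0.153%.

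In each comparison with NC more members were called lower than higher. Genes were tested with edgeR's quasi-likelihood test with Benjamini-Hochberg adjustment over 15407 genes, and a gene with an adjusted p under 0.05 was called. In BSG 29 of 152 members were called lower (19.1%, beside 6.22% of all genes) and 4 higher (beside 5.5%). In M-BSG 23 were called lower (15.1%, beside 3.13%) and 5 higher (beside 3.22%). In M-BSG-Hot 27 were called lower (17.8%, beside 3.51%) and 0 higher (beside 1.4%). For that count of 0, the edgeR test at an unadjusted p under 0.05 gave 2 members higher and 54 lower (36.8% in either direction, beside 16.8% of all genes). DESeq2 and limma-voom also called 0 higher (beside 2.58% and 1.32%). The 3 comparisons share the NC libraries, so they are not independent of each other.

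The median log2 fold change of the 152 was -0.14 in BSG, -0.20 in M-BSG and -0.24 in M-BSG-Hot, beside -0.017, -0.0070 and 0.0024 over all genes tested. Members below 0 numbered 96, 111 and 120 of 152 in that order, which is 63.2%, 73% and 78.9%, beside 52%, 51.4% and 49.5% of all genes. In BSG all 3 libraries lay below all NC libraries for 56 members (beside 20.6% of all genes) and above them for 12 (beside 18.1%). In M-BSG these counts were 60 (beside 15.1%) and 7 (beside 12.4%), and in M-BSG-Hot 66 (beside 14.5%) and 3 (beside 13.5%). With library totals in place of TMM scaling (trimmed mean of M-values), 39, 29 and 32 members were called lower, beside 8.74%, 4.36% and 4.37% of all genes. That scaling also moved the split over all genes, from 46.9% to 29.9% of calls higher in BSG, from 50.7% to 37.7% in M-BSG and from 28.4% to 18.1% in M-BSG-Hot. When the 3 libraries with the highest ribosomal share (BSG 1, M-BSG-Hot 3 and M-BSG 1) were all left out, 34, 32 and 36 members were called lower, beside 9.22%, 5.93% and 5.53% of all genes.

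The counts depended on single libraries. In BSG 18 members were called lower without NC 2 or without NC 3. In M-BSG the count was 10 without NC 1 or NC 3, 11 without NC 2, and 13 without M-BSG 2 or M-BSG 3. In M-BSG-Hot it was 16 without NC 1 or NC 3, 13 without NC 2 and 17 without M-BSG-Hot 1. The share over all genes fell too, in BSG to 2.74% without NC 2 and 2.88% without NC 3. In M-BSG it fell to 1.66%, 1.58% and 1.62% without NC 1, NC 2 and NC 3. Without M-BSG 2 and M-BSG 3 it was 1.98% and 1.62%. In M-BSG-Hot it fell to 2.17%, 1.82% and 1.96% without NC 1, NC 2 and NC 3, and to 2.08% without M-BSG-Hot 1. Members called higher in BSG numbered 1 without NC 2 or NC 3 (beside 2.73% and 2.7% of all genes) and 2 without BSG 3 (beside 4.14%). In M-BSG they numbered 1 without any one of NC 1, NC 2, NC 3, M-BSG 2 or M-BSG 3 (beside 1.88% to 2.36%). They numbered 3 without BSG 2 or BSG 3 (beside 2.94% and 2.92%).

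Other non-coding classes are set beside the members without a test between classes. Over all genes tested 6.22% were called lower in BSG, 3.13% in M-BSG and 3.51% in M-BSG-Hot. Of 317 tested antisense symbols under the 2 CPM floor, 21 were called lower in BSG (6.62%), 15 in M-BSG (4.73%) and 15 in M-BSG-Hot (4.73%). Of 191 tested divergent transcripts (symbols ending in -DT), 26, 19 and 24 were called lower, which is 13.6%, 9.95% and 12.6%. Of 253 tested LINC symbols, 24, 12 and 20 were called lower, which is 9.49%, 4.74% and 7.91%. Median log2 fold changes lay below 0 in all 3 classes in all 3 comparisons, at -0.25, -0.29 and -0.33 for the low antisense symbols, at -0.24, -0.38 and -0.38 for the divergent transcripts and at -0.17, -0.19 and -0.28 for LINC symbols.

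**Figure D2:**
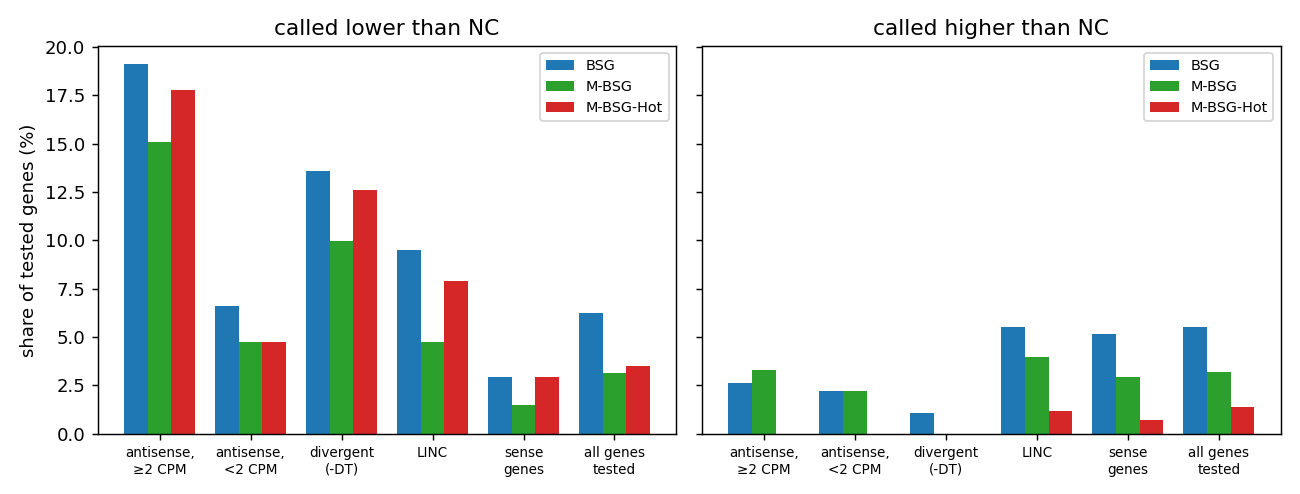
Share of tested genes, in percent, called lower (left) and higher (right) than NC in BSG, M-BSG and M-BSG-Hot, by gene class (edgeR, adjusted p under 0.05; bars start at 0). The antisense bars for lower stand at 19.1%, 15.1% and 17.8%, and those of all genes at 6.22%, 3.13% and 3.51%.

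SLC9A3-AS1, the antisense partner of the gene of the sodium/proton exchanger NHE3, was singled out with its changes already known, so its values are a description. It measured 11.1, 11.8 and 10.8 TMM-scaled CPM in NC, against 2.13, 2.61 and 2.59 (BSG), 5.15, 4.13 and 4.63 (M-BSG) and 2.83, 4.48 and 4.26 (M-BSG-Hot). All 9 other libraries lay below every NC library, with none above 5.15. The log2 fold change against NC was -2.20 (SE 0.17) in BSG, -1.27 (SE 0.16) in M-BSG and -1.54 (SE 0.16) in M-BSG-Hot. The edgeR adjusted p was 1.72e-06, 0.00023 and 7.45e-05 in that order, and the gene was called under every alternative tried in all 3 comparisons. In order of level NC stood first, then M-BSG, M-BSG-Hot and BSG. M-BSG and M-BSG-Hot overlapped (edgeR adjusted p = 0.734). M-BSG-Hot lay above BSG in every library, by 0.66 on the log2 scale, and the difference was not called (edgeR adjusted p = 0.126). M-BSG lay above BSG by 0.92, which was not called either (edgeR adjusted p = 0.0669). The sense gene SLC9A3 measured 4.07 ± 0.25 in NC, 3.10 ± 0.54 in BSG, 3.63 ± 0.23 in M-BSG and 4.21 ± 0.15 in M-BSG-Hot (CPM, SD, n = 3). Its BSG libraries lay below every NC library, and it was not called in any comparison with NC.

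The genes whose log2 CPM followed SLC9A3-AS1 most closely over the 12 libraries, of 12147 ranked, were CCNL2 (Pearson r 0.973), EZH1 (0.972), ASIC1 (0.972), YJEFN3 (0.966) and CCDC9B (0.965). CCNL2 is a cyclin linked to splicing, EZH1 a histone methyltransferase of the Polycomb group, and ASIC1 a proton-gated ion channel. These correlations are a description, since the NC libraries stand apart from the rest in each of these genes. CCNL2 measured 211 ± 4.30 CPM in NC, 111 ± 3.15 in BSG, 146 ± 3.82 in M-BSG and 121 ± 10.8 in M-BSG-Hot (SD, n = 3). EZH1 measured 29.4 ± 1.04, 15.7 ± 0.66, 20.1 ± 0.82 and 17.4 ± 0.73 in the same order, which repeats the order of the groups in SLC9A3-AS1.

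Beside SLC9A3-AS1, the members ASB16-AS1, CAMTA2-AS1, CCDC18-AS1 and TMEM147-AS1 were called lower in each comparison with NC under every alternative tried, TMEM147-AS1 being named after its values were seen. ASB16-AS1, whose sense gene encodes a SOCS-box protein, measured 7.46, 7.74 and 7.02 CPM in NC, against 2.80, 3.42 and 3.45 (BSG), 3.45, 3.33 and 3.41 (M-BSG) and 2.99, 3.00 and 3.96 (M-BSG-Hot). All 9 other libraries lay below 4 CPM and all NC libraries above 7, and the 3 other groups overlapped. Its log2 fold changes were -1.20, -1.12 and -1.16 (edgeR adjusted p = 0.000111, 0.00025 and 0.000251). Its sense gene ASB16 averaged 0.052 CPM over the libraries, too low to be tested.

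CAMTA2-AS1 lies opposite the gene of a calmodulin-binding transcription activator. It measured 6.78, 6.44 and 6.02 CPM in NC, against 2.07, 3.14 and 2.10 (BSG), 2.35, 2.98 and 3.65 (M-BSG) and 2.36, 2.25 and 1.95 (M-BSG-Hot), with every NC library above all others. The log2 fold changes were -1.39, -1.10 and -1.55 (edgeR adjusted p = 0.000377, 0.00296 and 0.000273). CAMTA2 itself measured 81.8 ± 5.75 CPM in NC and 73.6 ± 7.66, 76.6 ± 2.34 and 79.9 ± 3.52 in the other groups, and its libraries overlapped NC in all 3.

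CCDC18-AS1, opposite the gene of a coiled-coil protein, measured 6.78, 8.88 and 8.46 CPM in NC and 2.35, 3.97 and 3.69 in BSG. In M-BSG it measured 4.38, 3.62 and 4.20 and in M-BSG-Hot 2.20, 3.11 and 2.71, so M-BSG-Hot also lay below M-BSG in every library. The log2 fold changes against NC were -1.27, -0.98 and -1.59 (edgeR adjusted p = 0.000846, 0.00637 and 0.000251), and that of M-BSG-Hot against M-BSG was -0.60 (edgeR adjusted p = 0.32). TMEM147-AS1, opposite the gene of an endoplasmic reticulum membrane protein, measured 8.99, 9.16 and 9.78 CPM in NC and between 4.97 and 6.24 in the 9 other libraries. Its log2 fold changes were -0.72, -0.81 and -0.77 (edgeR adjusted p = 0.00123, 0.000691 and 0.00137), and TMEM147 was not called.

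**Figure D3:**
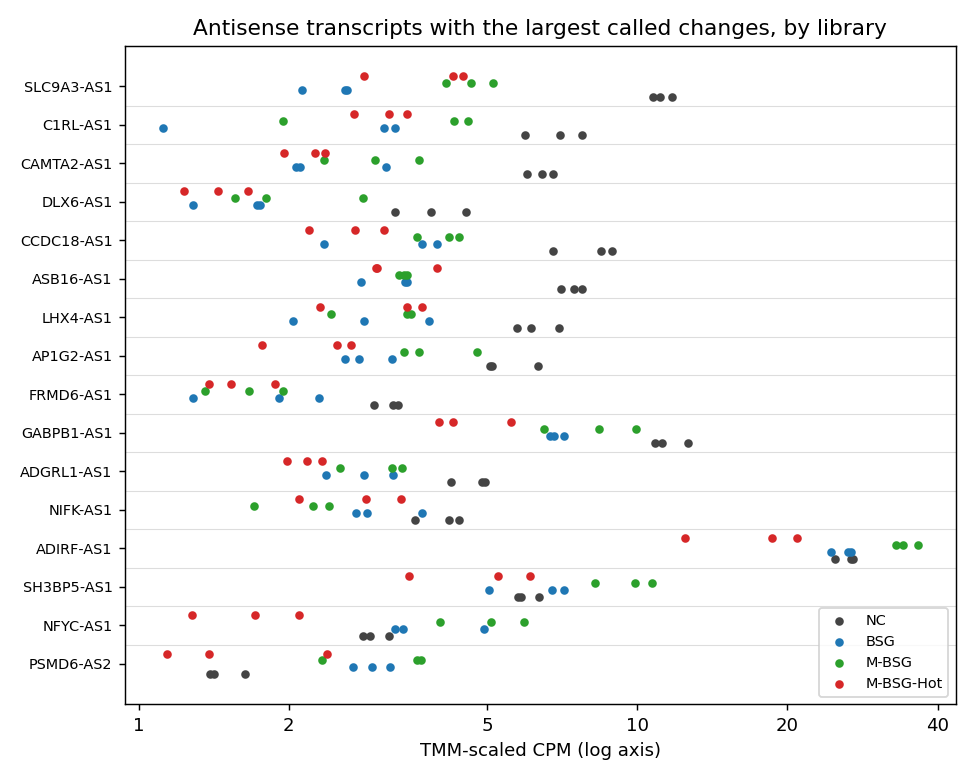
TMM-scaled CPM (log axis) of the 16 antisense transcripts named for the largest called changes within each comparison, with 1 point per library and a colour per group. For SLC9A3-AS1 the NC points lie between 10.8 and 11.8 CPM and all others at or below 5.15, whereas for PSMD6-AS2 the NC points lie at the low end, between 1.39 and 1.64.

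DLX6-AS1 (also called Evf2), transcribed from the DLX5/6 homeobox locus, measured 3.26, 4.54 and 3.86 CPM in NC, against 1.29, 1.72 and 1.75 (BSG), 1.56, 2.82 and 1.80 (M-BSG) and 1.44, 1.23 and 1.66 (M-BSG-Hot). Every NC library lay above all others. The log2 fold changes of DLX6-AS1 were -1.29 in BSG and -1.43 in M-BSG-Hot (edgeR adjusted p = 0.00319 and 0.00279), and these calls held in every alternative. In M-BSG the change of -0.91 was called (edgeR adjusted p = 0.0313) but not without NC 2 (0.148), NC 3 (0.0938), M-BSG 1 (0.118) or M-BSG 3 (0.135). The sense gene DLX6, a homeobox factor of bone and forebrain development, measured 6.30 ± 1.08 CPM in NC and 6.41 ± 0.17, 5.81 ± 1.16 and 6.64 ± 1.05 in BSG, M-BSG and M-BSG-Hot (SD, n = 3).

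LHX4-AS1, opposite a LIM homeobox gene, measured 6.98, 6.13 and 5.73 CPM in NC and 2.04 to 3.83 in the 9 other libraries. Its change of -1.11 in BSG was called in every alternative (edgeR adjusted p = 0.00701). The LHX4-AS1 change of -1.0 in M-BSG (edgeR adjusted p = 0.0179) was lost without NC 1 (0.0791), NC 2 (0.0565) or M-BSG 3 (0.092). That of -0.99 in M-BSG-Hot (edgeR adjusted p = 0.0235) was lost without NC 1 (0.0917), NC 2 (0.0722), NC 3 (0.0525), M-BSG-Hot 1 (0.0965) or M-BSG-Hot 2 (0.0606). C1RL-AS1, opposite a complement-like protease gene, measured 5.95, 7.01 and 7.73 CPM in NC and 1.12, 3.27 and 3.10 in BSG, where BSG 1 was lowest. It fell by 1.46 on the log2 scale in BSG (edgeR adjusted p = 0.0134), a call lost without NC 3 (0.0547), and was not called in M-BSG (-0.94) or M-BSG-Hot (-1.15).

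AP1G2-AS1, opposite the gene of a clathrin adaptor subunit, measured 5.10, 6.33 and 5.07 CPM in NC, against 2.77, 3.21 and 2.59 (BSG), 3.64, 4.77 and 3.41 (M-BSG) and 2.66, 2.49 and 1.76 (M-BSG-Hot). Its changes of -0.94 in BSG and -1.25 in M-BSG-Hot were called in every alternative (edgeR adjusted p = 0.00513 and 0.00137), while that of -0.48 in M-BSG was not called. The sense gene AP1G2 measured 57.6 ± 2.21 CPM in NC and 44.3 ± 4.51, 42.9 ± 3.13 and 51.3 ± 5.61 in BSG, M-BSG and M-BSG-Hot. AP1G2 was called lower in BSG (-0.38, edgeR adjusted p = 0.0255) and in M-BSG (-0.42, edgeR adjusted p = 0.0197). The BSG call of AP1G2 was lost without NC 1 (0.0878), NC 2 (0.0669), NC 3 (0.0699) or BSG 1 (0.0995), and its M-BSG call without NC 1 (0.0887), NC 2 (0.0598), NC 3 (0.0619), M-BSG 2 (0.0868) or M-BSG 3 (0.0749). Since 83.3% of the exonic bases of AP1G2-AS1 lie over exons of the opposite strand, the counts of both genes may share reads.

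ADGRL1-AS1, opposite the gene of the adhesion receptor latrophilin, measured 4.22, 4.88 and 4.94 CPM in NC and 1.98, 2.17 and 2.33 in M-BSG-Hot, and fell by 1.11 on the log2 scale in every alternative (edgeR adjusted p = 0.00137). In BSG it changed by -0.74 (edgeR adjusted p = 0.0118), which was lost without NC 2 (0.0521) or NC 3 (0.0551). In M-BSG ADGRL1-AS1 changed by -0.62 (edgeR adjusted p = 0.038), which was lost without NC 1 (0.0623), NC 2 (0.136), NC 3 (0.145), M-BSG 1 (0.0513), M-BSG 2 (0.152), M-BSG 3 (0.0877) or M-BSG-Hot 2 (0.0592). NIFK-AS1, opposite the gene of a nucleolar protein that binds Ki-67, measured 4.20, 3.58 and 4.39 CPM in NC and 2.41, 1.70 and 2.24 in M-BSG. NIFK-AS1 was called lower in M-BSG (-0.94, edgeR adjusted p = 0.0136), a call lost without NC 1 (0.0537), NC 3 (0.0648) or M-BSG 2 (0.065). Its changes of -0.39 in BSG and -0.55 in M-BSG-Hot were not called. The sense gene NIFK was called higher in BSG (0.33, edgeR adjusted p = 0.038), a call lost in 8 of 21 alternatives.

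FRMD6-AS1, opposite a gene of the FERM domain family, measured 3.32, 2.96 and 3.23 CPM in NC and 1.29 to 2.30 in the other 9 libraries, with no overlap. Its changes were -0.79 in BSG, -0.94 in M-BSG and -0.99 in M-BSG-Hot (edgeR adjusted p = 0.0371, 0.0232 and 0.0213). All of these FRMD6-AS1 calls were lost without NC 1, NC 2 or NC 3, with an edgeR adjusted p of 0.0576 to 0.111. They were further lost without BSG 1 (0.143), BSG 3 (0.0726), M-BSG 3 (0.0519) or M-BSG-Hot 2 (0.0523) or without BSG 1, M-BSG-Hot 3 and M-BSG 1 together (0.069) in BSG, without M-BSG 2 (0.0977) or M-BSG 3 (0.0783) in M-BSG, and without M-BSG-Hot 1 (0.0872) or M-BSG-Hot 2 (0.0789) in M-BSG-Hot.

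The members BCAN-AS1 and OIP5-AS1 held more counts than most and are named after their values were seen. BCAN-AS1, beside the gene of the matrix proteoglycan brevican, measured 202, 204 and 196 CPM in NC, against 91.6, 131 and 132 (BSG), 134, 124 and 139.5 (M-BSG) and 90.6, 132 and 142 (M-BSG-Hot). All NC libraries lay above the others, and BSG 1 and M-BSG-Hot 1 were lowest. Its change of -0.77 in BSG was called in every alternative (edgeR adjusted p = 0.00537). The BCAN-AS1 change of -0.72 in M-BSG-Hot (edgeR adjusted p = 0.0136) was lost without NC 2 (0.0583), and that of -0.60 in M-BSG (edgeR adjusted p = 0.0318) without NC 1 (0.0959), NC 2 (0.106), NC 3 (0.0847), M-BSG 1 (0.0634), M-BSG 2 (0.106) or M-BSG 3 (0.0777). Its sense gene BCAN was counted at 0.153 CPM on average and was not tested.

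OIP5-AS1, a conserved RNA also known as Cyrano, measured 111, 119 and 116 CPM in NC and 70.2 to 89.8 in the 9 other libraries. It changed by -0.51 in BSG (edgeR adjusted p = 0.00568), a call that held throughout. The OIP5-AS1 changes of -0.47 in M-BSG and -0.51 in M-BSG-Hot (edgeR adjusted p = 0.0144 and 0.0111) were lost without NC 2 (0.0706 and 0.06), in M-BSG also without NC 3 (0.0596) or M-BSG 1 (0.0575), and in M-BSG-Hot also without M-BSG-Hot 3 (0.054). OIP5, the gene of a centromere protein loader, measured 8.64 ± 0.81 CPM in NC and 10.9 ± 1.32, 10.8 ± 0.33 and 9.59 ± 0.50 in BSG, M-BSG and M-BSG-Hot (SD, n = 3), and was not called.

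Further members of middle level fell in the same way and are also named after their values were seen. HSD17B1-AS1, opposite an oestradiol-forming dehydrogenase gene, measured 20.9, 17.8 and 19.0 CPM in NC, against 13.3, 13.8 and 13.6 (BSG), 12.8, 13.3 and 13.1 (M-BSG) and 14.4, 15.5 and 16.8 (M-BSG-Hot). All NC libraries lay above the rest, and the 6 BSG and M-BSG libraries stayed within 12.8 to 13.8 CPM. HSD17B1-AS1 changed by -0.50 in BSG and -0.56 in M-BSG (edgeR adjusted p = 0.00313 and 0.00194), calls that held in every alternative, and by -0.30 in M-BSG-Hot (edgeR adjusted p = 0.0805).

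RPL26L1-AS1, opposite a ribosomal protein-like gene, measured 6.75, 4.91 and 5.05 CPM in NC and 2.40 to 3.64 in the 9 other libraries. It changed by -0.88 in BSG and -0.96 in M-BSG-Hot (edgeR adjusted p = 0.00643 and 0.00633), in every alternative. The RPL26L1-AS1 change of -0.77 in M-BSG (edgeR adjusted p = 0.0189) was lost without NC 1 (0.107), M-BSG 2 (0.0743) or M-BSG 3 (0.0807). ARRDC1-AS1, opposite the gene of an arrestin-domain protein of membrane budding, measured 11.8, 10.3 and 9.25 CPM in NC and 5.62 to 7.61 elsewhere. Its changes of -0.70 in M-BSG and in M-BSG-Hot (edgeR adjusted p = 0.00677 and 0.00837) held in every alternative, while the ARRDC1-AS1 change of -0.62 in BSG (edgeR adjusted p = 0.0108) was lost without NC 1 (0.0547).

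ALDH1A3-AS1, opposite a retinoic acid-forming dehydrogenase gene, measured 5.84, 6.26 and 5.97 CPM in NC and 3.30, 3.32 and 3.99 in BSG, and changed by -0.77 there (edgeR adjusted p = 0.00291). TRHDE-AS1, opposite the gene of a thyrotropin-releasing hormone peptidase, measured 19.0, 21.2 and 21.7 CPM in NC and 13.1, 14.5 and 12.6 in BSG (-0.62, edgeR adjusted p = 0.00428). THAP9-AS1, opposite a gene related to transposases, measured 19.8, 17.6 and 17.6 CPM in NC and 13.6, 10.7 and 9.76 in M-BSG (-0.69, edgeR adjusted p = 0.00787). PPP1R26-AS1, opposite a phosphatase regulator gene, measured 4.74, 4.96 and 5.18 CPM in NC and 2.36, 3.00 and 2.82 in M-BSG-Hot (-0.86, edgeR adjusted p = 0.00334). Each of these calls held in every alternative, but further calls of these members did not. In M-BSG ALDH1A3-AS1 (-0.53, edgeR adjusted p = 0.036), TRHDE-AS1 (-0.44, 0.042) and PPP1R26-AS1 (-0.52, 0.0488) were also called lower. Those calls were lost in 9, 9 and 14 of 21 alternatives. TRHDE-AS1 was also called lower in M-BSG-Hot (-0.55, edgeR adjusted p = 0.0163), a call lost in 4 alternatives. ZEB1-AS1, opposite the gene of a factor of epithelial-mesenchymal transition, measured 13.3, 11.2 and 12.5 CPM in NC and 5.79 to 9.25 in the 9 other libraries. The ZEB1-AS1 changes of -0.75, -0.80 and -0.85 (edgeR adjusted p = 0.0151, 0.0138 and 0.0124) were all lost without NC 1 (0.0556 to 0.0624), and in part without NC 3, BSG 1, M-BSG 2, M-BSG 3, M-BSG-Hot 1 or M-BSG-Hot 3 (0.0534 to 0.0634).

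Few members rose. EPB41L4A-AS1, a host of a small nucleolar RNA, measured 29.5, 26 and 27.3 CPM in NC, against 55.4, 45.5 and 44.3 (BSG), 54.8, 42.2 and 46.2 (M-BSG) and 30.0, 36.1 and 40.3 (M-BSG-Hot). Both BSG and M-BSG lay above every NC library, and M-BSG-Hot lay between NC and these groups. The log2 fold changes of EPB41L4A-AS1 were 0.81 in BSG and 0.79 in M-BSG (edgeR adjusted p = 0.000995 and 0.00162), called in every alternative, and 0.36 in M-BSG-Hot (edgeR adjusted p = 0.148). Its sense gene EPB41L4A measured 24.7 ± 1.59 CPM in NC and 22.8 ± 2.80, 25.2 ± 1.33 and 24.9 ± 2.22 in the others, and was not called.

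PSMD6-AS2, opposite a proteasome subunit gene, measured 1.39, 1.64 and 1.42 CPM in NC, against 2.69, 3.19 and 2.94 (BSG), 2.33, 3.62 and 3.68 (M-BSG) and 1.14, 2.39 and 1.38 (M-BSG-Hot). It rose by 0.99 in BSG and 1.11 in M-BSG (edgeR adjusted p = 0.0276 and 0.02), where no library overlapped NC. The PSMD6-AS2 calls were lost without NC 1 (0.0856 and 0.0824), NC 2 (0.0667 and 0.0563) or NC 3 (0.098 and 0.0832), in BSG also without BSG 2 (0.0547) or BSG 3 (0.0619), and in M-BSG also without M-BSG 2 (0.0735) or M-BSG 3 (0.0877). THUMPD3-AS1, opposite a tRNA methyltransferase gene and named after its values were seen, measured 7.32, 7.16 and 7.12 CPM in NC, 8.22, 15.5 and 17.2 in BSG, and 11.5, 15.7 and 12.5 in M-BSG. BSG 1 stood near NC. THUMPD3-AS1 rose by 0.92 in BSG and 0.88 in M-BSG (edgeR adjusted p = 0.0156 and 0.0278), calls lost without NC 2 (0.061 and 0.0999) or NC 3 (0.0606 and 0.0992), in BSG also without BSG 3 (0.0656), and in M-BSG also without NC 1 (0.0874), M-BSG 2 (0.106) or M-BSG 3 (0.064) or with library totals (0.0514).

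M-BSG-Hot and M-BSG carry the same material name, and their comparison called 4 of 152 members lower (beside 0.597% of all genes) and 0 higher (beside 0.0974%), with 17 lower and 5 higher at an unadjusted p under 0.05. In either direction these are 14.5% of members, beside 8.84% of all genes, of which 3.42% were higher. ADIRF-AS1, opposite an adipogenesis factor gene, measured 34.2, 33.0 and 36.5 CPM in M-BSG, against 12.5, 20.9 and 18.6 in M-BSG-Hot, with no overlap. It measured 26.9, 27.1 and 24.9 in NC and 26.8, 24.5 and 26.5 in BSG, between the 2 other groups. The log2 fold change of ADIRF-AS1 against M-BSG was -1.0 (SE 0.14, edgeR adjusted p = 0.00669). NFYC-AS1, opposite the gene of a subunit of the CCAAT-binding factor NF-Y, measured 4.02, 5.09 and 5.92 CPM in M-BSG, against 1.28, 2.09 and 1.71 in M-BSG-Hot, and fell by 1.56 on the log2 scale (SE 0.22, edgeR adjusted p = 0.00669). In NC and BSG NFYC-AS1 measured 2.81 to 3.18 and 3.27 to 4.92 CPM. The calls of ADIRF-AS1 and NFYC-AS1 against M-BSG held in every alternative.

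GABPB1-AS1 and SH3BP5-AS1 were the other members called lower in M-BSG-Hot than in M-BSG. GABPB1-AS1 measured 6.49, 9.96 and 8.40 CPM in M-BSG, against 3.99, 5.58 and 4.26 in M-BSG-Hot (-0.84, edgeR adjusted p = 0.0328). SH3BP5-AS1 measured 8.24, 9.91 and 10.7 CPM in M-BSG, against 3.48, 5.26 and 6.08 in M-BSG-Hot (-0.96, edgeR adjusted p = 0.0361). Both calls were lost without NC 1 (0.0535 for GABPB1-AS1 and 0.0591 for SH3BP5-AS1), NC 2 (0.0566 and 0.0648), NC 3 (0.0582 and 0.0597), BSG 2 (0.0505 and 0.0522), BSG 3 (0.0539 and 0.0519), M-BSG 2 (0.13 and 0.105), M-BSG 3 (0.158 and 0.197) or M-BSG-Hot 1 (0.161 and 0.123). GABPB1-AS1 further lost its call without M-BSG-Hot 3 (0.132), and SH3BP5-AS1 without M-BSG-Hot 2 (0.091). The number of members called was 2 without any one of NC 1, NC 2, NC 3, BSG 2, BSG 3, M-BSG 2, M-BSG 3 or M-BSG-Hot 1 (beside 0.159% to 0.497% of all genes). With DESeq2 it was 8 (beside 1.79%).

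**Figure D4:**
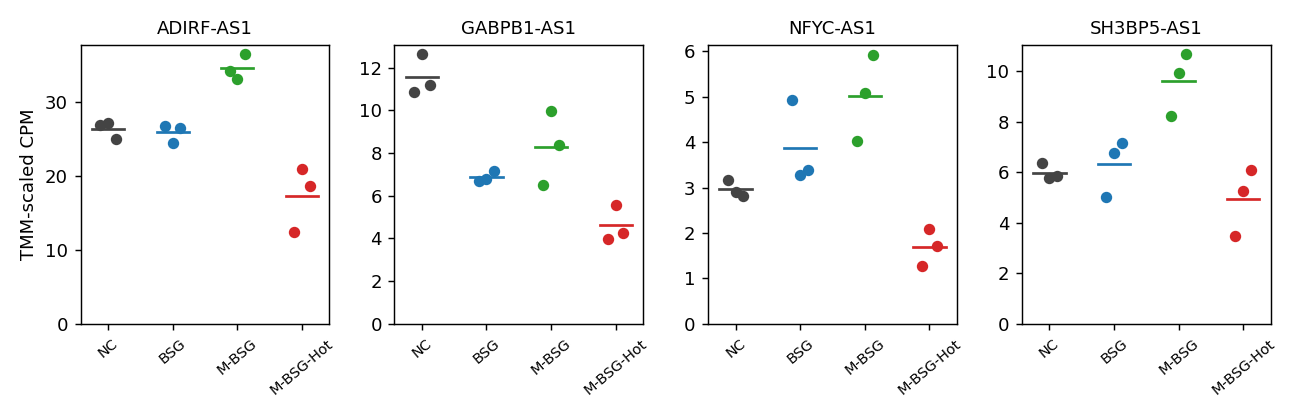
TMM-scaled CPM (vertical axes from 0) of the 4 antisense transcripts called lower in M-BSG-Hot than in M-BSG, with 1 point per library and a line at each group mean. For ADIRF-AS1 the M-BSG-Hot points lie between 12.5 and 20.9 and the M-BSG points between 33.0 and 36.5.

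NFYC-AS1 was also the 1 member called between M-BSG-Hot and BSG (1 lower, beside 0.85% of all genes called in either direction), with a log2 fold change of -1.19 (edgeR adjusted p = 0.0244). That NFYC-AS1 call was lost without BSG 1 (0.0721), M-BSG-Hot 1 (0.128) or M-BSG-Hot 3 (0.0791). In all, 0 members were called without M-BSG-Hot 3 (beside 0.445% of all genes) and 3 without M-BSG-Hot 2 (beside 0.604%). Between M-BSG and BSG 0 of 152 members were called (beside 0.13% of all genes). In that comparison the edgeR test gave 11 members at an unadjusted p under 0.05 (7.24%, beside 6.76% of all genes). There limma-voom called 0 (beside 0.182%) and DESeq2 called 1 (beside 0.325%), and 1 was called without M-BSG-Hot 1 (beside 0.172%). Against NC, NFYC-AS1 and SH3BP5-AS1 were called higher in M-BSG (0.76 and 0.68, edgeR adjusted p = 0.0478 and 0.044). Those calls were lost without NC 1 (0.107 for NFYC-AS1 and 0.101 for SH3BP5-AS1), NC 2 (0.152 and 0.153), NC 3 (0.164 and 0.148), BSG 2 (0.052 and 0.0562), BSG 3 (0.0589 and 0.0527), M-BSG 2 (0.113 and 0.11) or M-BSG 3 (0.202 and 0.168), and further without M-BSG-Hot 3 (0.0558) for NFYC-AS1 and M-BSG-Hot 2 (0.058) for SH3BP5-AS1. Both NFYC-AS1 and SH3BP5-AS1 also lost these calls with library totals (0.0614 and 0.0696) and with a filter at a mean of 2 CPM (0.0569 for each). ADIRF-AS1 was called lower in M-BSG-Hot than in NC (-0.60, edgeR adjusted p = 0.024), which was lost without NC 1 (0.0812), NC 2 (0.0958), NC 3 (0.0575) or M-BSG-Hot 3 (0.0518).

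Of 148 sense genes listed in the data, 136 were tested. In BSG 7 were called higher and 4 lower, in M-BSG 4 were higher and 2 lower, and M-BSG-Hot gave 1 and 4, with median log2 fold changes of -0.017, 0.014 and 0.012. Called higher were thus 5.15%, 2.94% and 0.735% of tested sense genes, beside 5.5%, 3.22% and 1.4% of all genes, and called lower 2.94%, 1.47% and 2.94%, beside 6.22%, 3.13% and 3.51%. Of the 29 members called lower in BSG, the sense gene was lower for 2 (ADGRL1 and AP1G2), higher for GABPB1, not called for 24 and not tested for 2. Of the 23 members lower in M-BSG the sense gene was not called for 20 and not tested for 3. Of 26 with a sense gene in the tables in M-BSG-Hot, it was lower for CCDC18, not called for 22 and not tested for 3. A sense gene that was not called is not thereby shown to be unchanged. The ADGRL1 call (-0.34, edgeR adjusted p = 0.0463) was lost without NC 1 (0.0866), NC 2 (0.16), NC 3 (0.114), BSG 1 (0.171), BSG 3 (0.0992), M-BSG 3 (0.0645), M-BSG-Hot 1 (0.0548), M-BSG-Hot 2 (0.0676) or M-BSG-Hot 3 (0.0576). The CCDC18 call in M-BSG-Hot (-0.37, edgeR adjusted p = 0.044) was lost without any one library but NC 1 and BSG 1, with an edgeR adjusted p of 0.0547 to 0.215. The ADGRL1 and CCDC18 calls were also lost with DESeq2 size factors (0.0528 and 0.0512) and with the length trend removed (0.0908 and 0.193), and that of CCDC18 with no count filter (0.0832) and without BSG 1, M-BSG-Hot 3 and M-BSG 1 together (0.0533).

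GABPB1-AS1 and its sense gene moved in opposite directions in BSG. GABPB1 encodes the beta subunit of GA-binding protein, a transcription factor of nuclear genes for mitochondrial proteins. GABPB1-AS1 measured 10.9, 12.6 and 11.2 CPM in NC, 6.69, 6.80 and 7.14 in BSG, and 3.99, 5.58 and 4.26 in M-BSG-Hot. It fell by 0.75 in BSG and by 1.33 in M-BSG-Hot on the log2 scale (edgeR adjusted p = 0.00759 and 0.000215), in every alternative, and its change of -0.48 in M-BSG was not called. GABPB1 measured 34.1, 29.6 and 32.1 CPM in NC and 44.8, 41.3 and 40 in BSG, with no overlap, and rose by 0.40 (edgeR adjusted p = 0.0046) in every alternative. In M-BSG GABPB1 changed by 0.28 (edgeR adjusted p = 0.0466), a call lost without any one library but BSG 1 and M-BSG-Hot 3, with an edgeR adjusted p of 0.0523 to 0.224. It was also lost with library totals (0.0921), no count filter (0.128), a filter at a mean of 2 CPM (0.0512) and the length trend removed (0.083). The log2 ratio of GABPB1-AS1 to GABPB1 was -0.30 ± 0.21 in NC, -1.40 ± 0.12 in BSG, -1.05 ± 0.29 in M-BSG and -1.72 ± 0.28 in M-BSG-Hot (FPKM with a pseudocount of 0.1, SD, n = 3). GABPB1-AS1 shares 6.03% of its exonic bases with exons of the opposite strand.

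**Figure D5:**
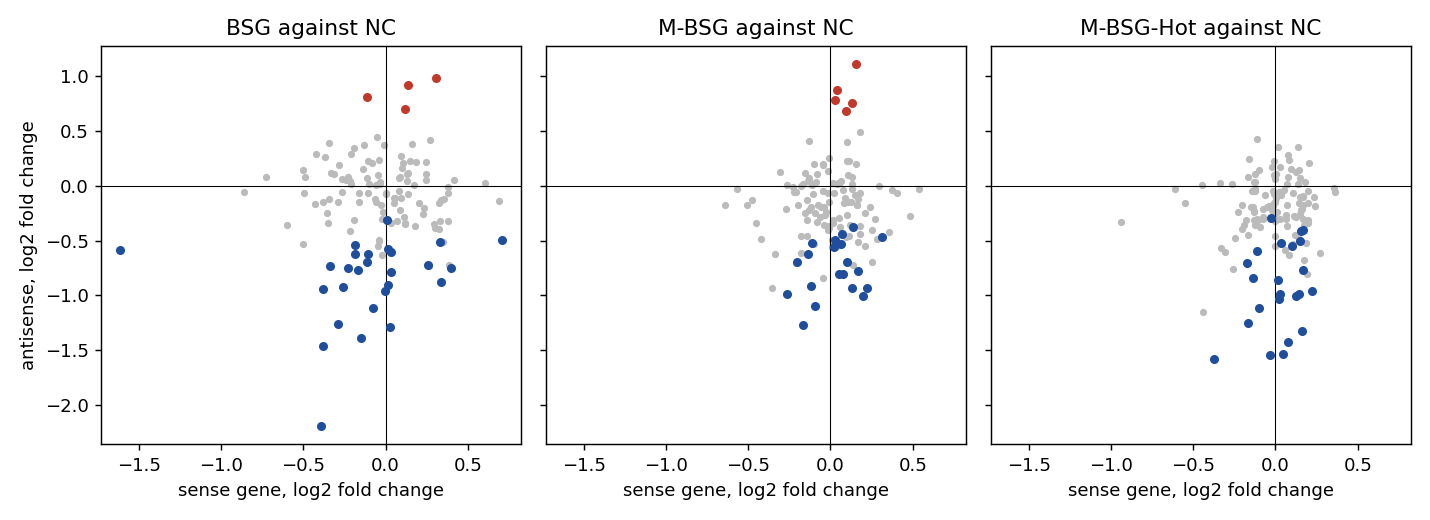
Log2 fold change against NC of each antisense transcript (vertical) and of its sense gene (horizontal), for the 136 pairs whose sense gene was tested, in 3 panels. Blue points are antisense transcripts called lower and red points those called higher (edgeR, adjusted p under 0.05), and the blue points lie between -0.29 and -2.20 on the vertical axis.

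Levels of different genes are compared only as FPKM (fragments per kilobase of gene length and 1e6 counts). In 52 of 149 pairs the antisense member had a higher mean FPKM than its sense gene, and in 97 a lower one. The log2 ratio of antisense to sense lay below all NC libraries in all 3 libraries of BSG for 55 pairs, of M-BSG for 53 and of M-BSG-Hot for 57, and above them for 17, 8 and 4. Such counts were not made for other pairs of genes, so no background share stands beside them. A fall of the member alone lowers the ratio, so these counts are not a result apart from the calls above. SLC9A3-AS1 exceeded SLC9A3 in every group, with a log2 ratio of 2.95 ± 0.059 in NC, 1.16 ± 0.20 in BSG, 1.84 ± 0.17 in M-BSG and 1.37 ± 0.37 in M-BSG-Hot (SD, n = 3). CAMTA2-AS1 lay below CAMTA2 throughout, with a log2 ratio of -2.91 ± 0.022 in NC and -4.05 ± 0.15, -3.84 ± 0.25 and -4.29 ± 0.18 in the others. CCDC18-AS1 stood above CCDC18 in NC (0.42 ± 0.092) and below it in BSG (-0.51 ± 0.30), M-BSG (-0.25 ± 0.19) and M-BSG-Hot (-0.70 ± 0.18). EPB41L4A-AS1 exceeded EPB41L4A by 2.91 ± 0.18 in NC and by 3.82 ± 0.31, 3.65 ± 0.26 and 3.24 ± 0.26 in the others.

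The 5 members with the highest mean FPKM were FGD5-AS1 (33.3), EPB41L4A-AS1 (33.2), PITPNA-AS1 (30.4), NUTM2A-AS1 (22.6) and LOXL1-AS1 (20.3). Apart from EPB41L4A-AS1 they were not called in any comparison. FGD5-AS1 measured 37.4 ± 1.58 FPKM in NC, 32.1 ± 3.78 in BSG, 32.5 ± 2.63 in M-BSG and 31.3 ± 2.36 in M-BSG-Hot (SD, n = 3). LOXL1-AS1, opposite the gene of an elastin cross-linking oxidase, measured 22.9 ± 0.31, 19.6 ± 0.83, 19.0 ± 0.33 and 19.7 ± 0.38 FPKM in that order. All 9 other LOXL1-AS1 libraries lay below NC in TMM-scaled CPM too, at 53.6 to 58.8 against 62.8 to 63.1. NUTM2A-AS1 measured 22.7 ± 1.47, 23.3 ± 0.17, 22.2 ± 0.68 and 22.4 ± 2.39 FPKM, and all 3 groups overlapped NC.

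Members are described by length and position without a test. Of 71 members of at least 2500 bases, 28.2% were called lower in BSG, 16.9% in M-BSG and 25.4% in M-BSG-Hot, and of 81 shorter members 11.1%, 13.6% and 11.1%. With a per-library trend on length removed, 38, 29 and 35 members were called lower, beside 7.02%, 4.52% and 4.61% of all genes. Position was taken from GENCODE starts, which differ from RefSeq starts for some members. Of 50 members that start within 1000 bases of the sense start, 8, 4 and 7 were called lower (16%, 8% and 14%). Of 97 that start farther away 20, 18 and 18 were (20.6%, 18.6% and 18.6%). Of 33 members with at least 10 mean CPM 7, 6 and 8 were called lower (21.2%, 18.2% and 24.2%). Of 84 members under 5 CPM 16, 12 and 13 were (19.0%, 14.3% and 15.5%). Over all genes 6.22%, 3.13% and 3.51% were called lower. Shares of all genes of like length or level were not counted, so these splits are not shown to be particular to antisense members.

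Genes known to act on such RNAs were mostly not called, and their part in the antisense results was not tested. Over all genes 5.5%, 3.22% and 1.4% were called higher in BSG, M-BSG and M-BSG-Hot, and 6.22%, 3.13% and 3.51% lower. The nuclear exosome and its cofactors degrade and process nuclear RNA, and of 27 tested genes 3 were higher (11.1%) and 1 lower (3.7%) in BSG. Their summed level was 1688 to 1713 CPM in NC, 1777 to 1845 in BSG, 1762 to 1776 in M-BSG and 1711 to 1736 in M-BSG-Hot. All BSG and M-BSG libraries thus lay above NC in this sum. In M-BSG none was called (0 higher, 0 lower) and in M-BSG-Hot ZFC3H1 was lower (1 lower, 3.7%, and 0 higher). Median log2 fold changes of the 27 genes were 0.097, 0.040 and 0.0074 in BSG, M-BSG and M-BSG-Hot. ZFC3H1, which hands polyadenylated RNA to the exosome, measured 45.9, 53.6 and 48.8 CPM in NC, against 23.9, 33.1 and 32.5 (BSG), 30.6, 42.7 and 41.8 (M-BSG) and 30.9, 33.5 and 25 (M-BSG-Hot). ZFC3H1 was called lower in BSG in every alternative and in M-BSG-Hot (-0.73 in both, edgeR adjusted p = 0.007 and 0.0121), where the call was lost without NC 2 (0.0664) or M-BSG-Hot 3 (0.0641). The exosome subunit EXOSC9 (0.38), the adaptor RBM7 (0.26) and SRRT (0.30), which links the cap-binding complex to decay, were called higher in BSG (edgeR adjusted p = 0.0385, 0.0463 and 0.0299). Of 14 tested Integrator genes, whose complex ends many short nuclear transcripts, INTS10 was higher (0.26) and INTS1 lower (-0.31) in BSG, and 0 were called in M-BSG or M-BSG-Hot. The BSG calls are 7.14% of these genes in each direction. The calls of EXOSC9, RBM7, SRRT, INTS10 and INTS1 were each lost without NC 2, NC 3 or BSG 1, with an edgeR adjusted p of 0.0734 to 0.189, and those of EXOSC9, RBM7, INTS10 and INTS1 also without NC 1 or BSG 3 (0.0616 to 0.127). Library totals ended the calls of EXOSC9 (0.0644), RBM7 (0.145), SRRT (0.0641) and INTS10 (0.112), and removing the length trend that of INTS1 (0.0572).

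Of 15 tested genes that sense or edit double-stranded RNA, 1 was called higher (6.67%) and 2 lower (13.3%) in each comparison with NC. Over all genes 5.5%, 3.22% and 1.4% were higher and 6.22%, 3.13% and 3.51% lower in BSG, M-BSG and M-BSG-Hot. ADARB1, an RNA-editing deaminase, measured 38.7 ± 1.95 CPM in NC and 29.6 ± 1.32, 31.2 ± 0.69 and 31.0 ± 2.13 in BSG, M-BSG and M-BSG-Hot. MAVS, the mitochondrial adaptor of RNA sensing, measured 119 ± 3.52 in NC and 81.5 ± 8.01, 90.7 ± 11.2 and 90.9 ± 6.90 in the same order. The MAVS change in BSG (-0.54, edgeR adjusted p = 0.00317) was called in every alternative and that of ADARB1 (-0.39, edgeR adjusted p = 0.00557) in all but the fit with the length trend removed (0.71). In M-BSG and M-BSG-Hot both calls were lost without any one NC library, with an edgeR adjusted p of 0.0534 to 0.165, and those of ADARB1 also with the length trend removed (0.296 and 0.409). OAS2, a sensor of double-stranded RNA, was called higher but stood at 0 counts in 2 NC libraries and at 0.479 CPM at most. Of the best known nuclear long non-coding RNAs, NEAT1, the scaffold of paraspeckles, measured 159, 164 and 162 CPM in NC and 19.1 to 29.5 in the 9 other libraries, with log2 fold changes of -2.90, -2.62 and -2.88. MALAT1 of nuclear speckles measured 128 ± 9.03 CPM in NC, 122 ± 10.6 in BSG, 99.1 ± 1.58 in M-BSG and 80.7 ± 13.2 in M-BSG-Hot, and was called lower in M-BSG-Hot (-0.67, edgeR adjusted p = 0.00179).

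The defining markers of bone and of other cell types were also summed. The 7 epithelial markers ran from 15.2 to 17.2 CPM in NC and 15.6 to 23.2 elsewhere, 6 immune markers from 134 to 153 and 120.1 to 166, and 6 endothelial markers from 13.8 to 15.7 and 13.9 to 21.4. The 10 bone and mesenchymal markers in the tables ran from 3937 to 4258 CPM in NC and 4042 to 5080.4 elsewhere. VIM made up most of the bone sum, CD68 most of the immune sum, EPCAM most of the epithelial sum and EGFL7 most of the endothelial sum. The osteoblast markers SP7 and BGLAP averaged at most 0.018 and 0.055 CPM in any group. CD14 averaged 0.54 CPM in NC, 1.80 in BSG, 1.13 in M-BSG and 0.61 in M-BSG-Hot and was called higher in BSG (1.74, edgeR adjusted p = 0.00123). TWIST1, a mesenchymal factor, averaged 9.81, 16.5, 13.5 and 11.4 CPM and was called higher in BSG (0.75, edgeR adjusted p = 0.000181). It was also called higher in M-BSG (0.46, edgeR adjusted p = 0.0099), a call lost without NC 2 (0.0613). The part of these markers in the antisense results was not tested.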

How the data were processed

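RNA sequencing of 12 libraries of 143B cells was analysed. Gene-level read counts were used as the authors deposited them, per the file headers, together with the FPKM values and gene lengths of the same deposited tables. The submitters' processing notes list the builds GRCm38 and mm10, which are mouse, while the tables hold human symbols. This was not resolved. For the aligner, the counter and the strand setting no source used here gives a name or value. Coordinates and sequences come from RefSeq GRCh38.p14 and gene models from GENCODE v29, matched by name or ID.

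Genes were filtered with filterByExpr, scaled by TMM, and tested with edgeR's quasi-likelihood test (edgeR 4.0.16, R 4.3.3) in 1 fit over the 4 groups, with Benjamini-Hochberg adjustment over all 15407 genes tested. DESeq2 1.42.0 and limma 3.58.1 (voom) were alternatives. In 1 simulation of BSG against NC over 15407 genes, 100% of the genes changed by 2 or 1 on the log2 scale were recovered, with 9 false calls. It gave every gene the same spread and drew the changed genes only among those with higher counts. Its recovery rate therefore checks the fit and does not carry over to the members, whose spread differs from gene to gene. A single value compared over 3 against 3 libraries cannot reach a two-sided exact permutation p below 0.1.

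The members and the gene lists were chosen with earlier results of these data known. Named members are SLC9A3-AS1, the 8 called members with the largest fold change in each comparison with NC (5 in the others) and the 5 with the highest mean FPKM. Values of the sense gene are given for part of them. Other members are named as chosen after their values were seen, as are TP73-AS1, CSRP1-AS1 and the members at the floor. Alternatives changed the scaling, the test, the filter, a length trend, a replicate block and single libraries.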

Additional observations from a re-analysis of the deposited data

How the results depend on the processing

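Among 102 called fold changes of named genes and their sense genes, 40 were called in all 21 alternatives, 62 were lost in at least 1, 44 of them only when 1 library was left out, and 0 were reversed. Leaving out 1 library at a time gave 18 to 32 members lower and 1 to 6 higher in BSG, 10 to 27 lower and 1 to 6 higher in M-BSG, and 13 to 33 lower and 0 to 0 higher in M-BSG-Hot. Of all genes 2.74% to 7.81%, 1.58% to 3.66% and 1.82% to 4.17% were then lower, and 2.7% to 8.46%, 1.88% to 4.05% and 0.657% to 1.94% higher. Among the other groups 0 to 1 were called between M-BSG and BSG, 2 to 5 between M-BSG-Hot and M-BSG, and 0 to 3 between M-BSG-Hot and BSG. Of all genes 0.0191% to 0.172%, 0.159% to 0.911% and 0.324% to 1.04% were called there. Members higher in M-BSG numbered 2 with library totals alone (beside 2.64% of all genes) and 3 with a filter at a mean of 2 CPM (beside 2.89%), against 5 (beside 3.22%). With the length trend removed 1 member was higher in M-BSG-Hot, 1 was called between M-BSG and BSG and 4 between M-BSG-Hot and BSG (beside 2.51%, 0.188% and 1.93% of all genes). DESeq2 called 1, 8 and 8 members between M-BSG and BSG, M-BSG-Hot and M-BSG, and M-BSG-Hot and BSG (beside 0.325%, 1.79% and 2.54% of all genes). With no count filter 1 was called between M-BSG and BSG and 2 between M-BSG-Hot and BSG (beside 0.157% and 0.736%). Without the 3 libraries highest in ribosomal share (BSG 1, M-BSG-Hot 3 and M-BSG 1) 4 were called between M-BSG-Hot and BSG (beside 1.67%). In the comparisons of BSG, M-BSG and M-BSG-Hot with NC, DESeq2 called 37, 34 and 36 members lower (beside 8.7%, 4.56% and 4.96% of all genes). There limma-voom called 29, 26 and 29 lower (beside 6.56%, 3.38% and 3.68%). The causes of these differences were not tested. Library totals put the median log2 fold change of all genes at -0.095, -0.065 and -0.065.

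With the replicate number as a block, 32, 23 and 29 members were lower in BSG, M-BSG and M-BSG-Hot (beside 7.03%, 3.06% and 3.36% of all genes). In the same order 4, 4 and 0 were higher (beside 6.59%, 3.1% and 1.32%). Among the 3 groups other than NC, 0, 4 and 1 were called (beside 0.149%, 0.669% and 0.792%). In M-BSG the block ended the calls of NFYC-AS1 (edgeR adjusted p = 0.0753), MRPL20-AS1 (0.0724), PPP1R26-AS1 (0.0699), ALDH1A3-AS1 (0.0547), TRHDE-AS1 (0.052) and the sense gene GABPB1 (0.0506). In BSG it ended that of SLC5A4-AS1 (edgeR adjusted p = 0.0621). In M-BSG-Hot it ended those of WARS2-AS1 (edgeR adjusted p = 0.0582) and the sense genes ZNF337 (0.0577) and CCDC18 (0.0503). Of 18 same-number pairs 4 correlated above 0.1. Same-number pairs correlated between -0.287 and 0.408 and other pairs between -0.32 and 0.289. Among NC, BSG and M-BSG every same-number pair was positive, from 0.0356 to 0.408, with BSG 1 and M-BSG 1 highest. Some pairs of other numbers were positive there too, such as BSG 3 and M-BSG 2 (0.19). Same-number pairs with M-BSG-Hot ran from -0.287 to 0.0333. Whether the numbers mark a pairing is therefore not settled.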
